A study of Homo sapiens with 2 samples.

Results

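The genes described here encode splicing factors and heterogeneous nuclear ribonucleoproteins (hnRNPs). They were taken as all gene probes on both arrays whose gene name starts with SRSF, SFRS, HNRNP, SF3A, SF3B, SNRP, PRPF or U2AF. This gave 110 probes for 71 gene names, of 34127 gene probes in all, and each of the 71 genes had a probe well above background among the 13720 genes measured. By role they comprised 13 SR protein genes, 20 hnRNP genes, 12 genes of the SF3A, SF3B and U2AF proteins, 13 SNRP genes and 13 PRPF genes. The rule used names only and no measured value.

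RMG1 is an established ovarian clear cell adenocarcinoma cell line, and the ALDEFLUOR assay sorts living cells by aldehyde dehydrogenase (ALDH) activity, which is used to enrich ovarian cancer stem-like cells. Untreated RMG1 cells were sorted into ALDH+ and ALDH- cells, without genetic modification of either group. Each array received total RNA of both groups, one in Cy5 and the other in Cy3. On array 1 the ALDH+ RNA carried Cy5, and on array 2 it carried Cy3. The paper describes no second sort, so both arrays were taken to compare 1 sample per group and no test was made. On that reading, what differs between the arrays is technical error. In such bulk RNA, fewer cells of a kind and less RNA per cell cannot be told apart. The labels name RMG1 as the source of the RNA, whereas the methods name AMOC2.

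Before translation, introns are removed from a pre-mRNA by the spliceosome, which is assembled from small nuclear ribonucleoproteins (snRNPs) named U1, U2, U4, U5 and U6. A ring of Sm proteins, encoded by SNRP genes, sits on most of these small RNAs. U2AF reads the end of the intron and the SF3A and SF3B complexes bind the U2 snRNP to the branch point, after which the PRPF proteins form and activate the catalytic core. SR proteins carry RNA recognition motifs and a tail of alternating arginine and serine and mostly favour the use of an exon, whereas many hnRNPs, such as HNRNPA1, oppose it. Many SR protein and hnRNP genes also regulate the splicing of their own transcripts.

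The following probe sequences are shown because they read in open frame through the repeats that define these proteins, or because the comparison of probes of 1 gene turned on them. All positions are hg19, and the sequences are those of the array files. In the first pair the capitals mark codons of adjacent arginine and serine, the repeat of SR protein tails. The SRSF10 probe lies at chr1:24298341-24298400 on the minus strand, and the SRSF11 probe at chr1:70715651-70715710 on the plus strand.
SRSF10: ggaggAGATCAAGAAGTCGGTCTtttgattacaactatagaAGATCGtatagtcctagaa
SRSF11: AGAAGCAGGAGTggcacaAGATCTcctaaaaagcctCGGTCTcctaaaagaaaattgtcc

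In the next probe the capitals mark codons of adjacent arginine and glycine in HNRNPU. It spans an exon junction at chr1:245018289-245018727 on the minus strand.
HNRNPU: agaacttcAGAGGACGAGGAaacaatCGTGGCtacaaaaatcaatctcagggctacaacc

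A pair of HNRNPA3 probes was placed at the same 60 bases, chr2:178080329-178080388 on the plus strand, and they differed at 3 bases, in capitals. A pair of PRPF4B probes was placed near each other on the transcript, at positions 2611 and 2792 from its start, at chr6:4056609-4056668 and across a junction at chr6:4057390-4058989. Both are on the plus strand, and no base of them is in capitals.
HNRNPA3 probe 1: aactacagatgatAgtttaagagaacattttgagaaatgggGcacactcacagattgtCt
HNRNPA3 probe 2: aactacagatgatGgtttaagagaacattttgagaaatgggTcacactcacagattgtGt
PRPF4B at 2611: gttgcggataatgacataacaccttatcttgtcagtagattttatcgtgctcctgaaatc
PRPF4B at 2792: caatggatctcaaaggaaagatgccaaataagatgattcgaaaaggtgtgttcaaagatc

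Between 50.3% and 64.9% of the 43118 gene probe spots were well above background in a dye on an array, with the higher shares in Cy5. All 8 markers of clear cell and epithelial cells that were looked at, PAX8, NAPSA, KRT8, KRT18, KRT19, EPCAM and CDH1 among them, were measured, with log2 ratios from -0.74 for PAX8 to 0.13 for KRT19. Of 6 leukocyte markers 3 were measured, with log2 ratios from -0.08 to 0.45, and the others, among them CD3E and ITGAM, were not well above background. Of 6 fibroblast and endothelial markers 1 was measured, CDH5, and COL1A1, COL3A1, DCN, PECAM1 and VWF were not. Pearson's r between array 1 and array 2 was 0.69 over all 13720 genes and 0.60 over the 71 splicing genes, which as genes are not independent replicates. All ratios below are log2 ratios of ALDH+ over ALDH- cells, so that a value below 0 is lower in ALDH+ cells. A gene was represented by its brightest measured probe, its value is the mean of both arrays, and the SD is that of the 2 arrays.

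None of the 71 splicing genes differed by more than 2-fold between ALDH+ and ALDH- cells in either direction. Of all measured genes 0.211% were more than 2-fold higher and 0.707% more than 2-fold lower. Past 1.5-fold, no splicing gene was higher, where 1.51% of all genes were, and 1 gene was lower, where 4.59% of all genes were. This gene was SRSF1. Ratios of the 71 genes ran from -0.77 for SRSF1 to 0.53 for HNRNPA1, with a median of -0.04, beside a median of 0.00 over all genes. On both arrays 20 genes were above 0 (28.2%, beside 33.7% of all genes), and on both arrays 31 were below 0 (43.7%, beside 36.1%). The remaining 20 had opposite signs on the 2 arrays. With median centring of each array in place of loess the median of the 71 genes moved above 0, to 0.12, beside 0.07 over all genes, and 2 genes were more than 1.5-fold higher. The arrays lay far apart under median centring, with an SD between them of 1.26 for HNRNPA1, 1.40 for U2AF1 and 1.31 for U2AF2, against 0.10, 0.03 and 0.12 with loess.

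**Figure D1:**
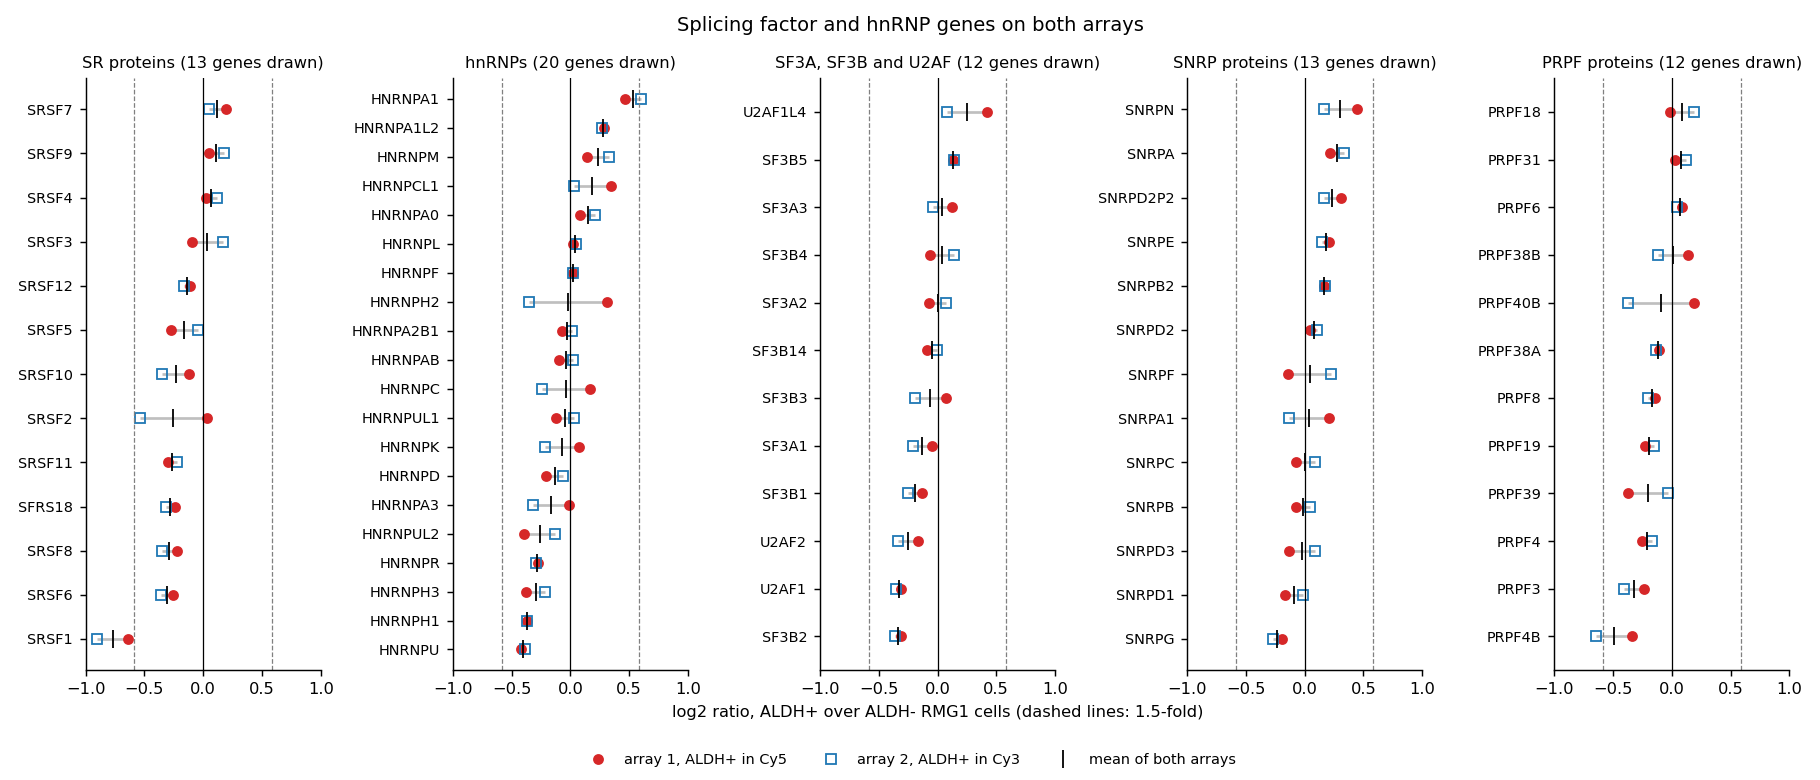
Log2 ratio of ALDH+ over ALDH- RMG1 cells for the splicing factor and hnRNP genes, by role, with 1 of the 71 genes not drawn. Filled red circles are array 1 (ALDH+ in Cy5), open blue squares array 2 (ALDH+ in Cy3), black ticks their mean, and dashed lines mark 1.5-fold. SRSF1 alone has its mean beyond a dashed line, and HNRNPH2 has its 2 arrays on opposite sides of 0.

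**Figure D2:**
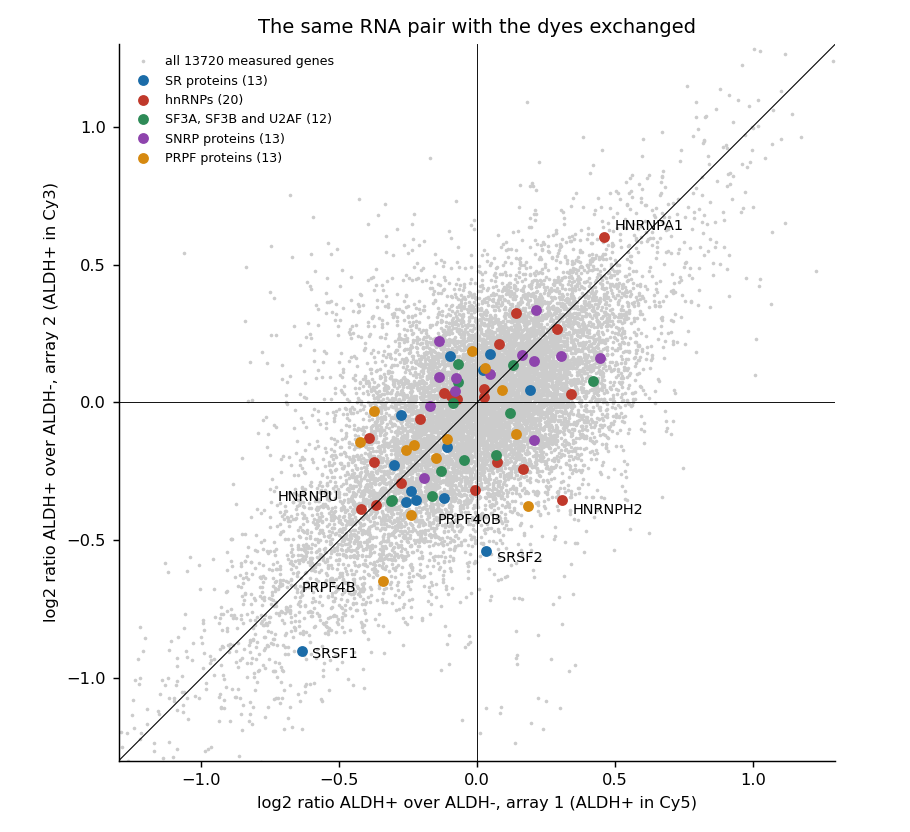
Log2 ratio on array 1 (x axis) against array 2 (y axis), for all measured genes in grey and the splicing genes in colour by role. The diagonal marks equal values, and 49 of all genes lie beyond the axes, which end at 1.3 and -1.3. SRSF1 is below 0 and HNRNPA1 above 0 on both arrays, whereas HNRNPH2, PRPF40B and SRSF2 are above 0 on array 1 and below 0 on array 2.

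Of the 13 SR protein genes 8 were below 0 on both arrays (61.5%, beside 36.1% of all genes). Another 3 were above (23.1%, beside 33.7%) and 2 were mixed. The median of the 13 was -0.23, but -0.01 with median centring. It was -0.12 on array 1 and -0.23 on array 2, and with the mean of all measured probes of each gene -0.16. The genes below 0 on both arrays were SRSF1, SRSF5, SRSF6, SRSF8, SRSF10, SRSF11, SRSF12 and SFRS18 (now PNISR). Those above 0 on both were SRSF4, SRSF7 and SRSF9.

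SRSF1, the founding SR protein, which helps U1 and U2AF to find splice sites, had the lowest value of all 71 genes. Its normalized log2 signal on array 1 was 7.34 in ALDH+ and 7.98 in ALDH- cells, and on array 2 it was 7.20 and 8.10. The ratios were -0.64 and -0.90, with a mean of -0.77 ± 0.19 (SD of 2 arrays), which is 1.70-fold lower in ALDH+ cells. ALDH+ was thus the dimmer group on both arrays. The gene ranked 283rd from the lowest of 13720 genes.

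The SRSF1 value rests on 1 probe, with 1 spot per array, which lies on the minus strand at chr17:56078390-56078449, at position 5473 of its transcript. The spot was dim. Its scanned signals in Cy3 were 269.1 on array 1 and 182.3 on array 2, where the 153 negative control spots had medians of 135.2 and 127.2. In Cy5 they were 178.5 and 310.5, beside negative control medians of 45.1 and 43.1. SRSF1 was 1.5-fold lower or more on each array alone and under each other setting of background and normalization. These values ran from -0.63 without background correction to -1.23 by the array software's own ratio. With 1 measured probe that was well above background in both groups, SRSF1 could not change with the filter or probe choice. It was -0.53, inside 1.5-fold, when each ratio was centred on all probes at a like transcript position.

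SRSF6, which has 2 measured probes, was -0.26 and -0.36 on arrays 1 and 2 at its brighter probe. Its other probe, for a transcript with a non-coding RefSeq accession, was -0.27 and -0.20. That probe was dim, with scanned signals in Cy3 of 245.2 and 221.0, beside negative control medians of 135.2 and 127.2. Both probes were below 0 on both arrays. SRSF11 was -0.26, -0.37 and -0.11 at its 3 probes, the first of which is printed above. The last had 10 spots per array, with an SD between spots of 0.05 and 0.07. On arrays 1 and 2 the first probe was -0.30 and -0.23, the second -0.51 and -0.23 and the last -0.12 and -0.10. The SRSF11 probes therefore shared a direction on both arrays, and the first and second differed clearly on array 1 alone.

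SRSF2 did not behave alike on the 2 arrays. At its brighter probe this SR protein, which recognizes exonic enhancers and is mutated in myeloid neoplasms, was 0.03 on array 1 and -0.54 on array 2. At its other probe it was -0.02 and -0.18. SRSF3, the smallest SR protein, was -0.10 and 0.17 at its brighter probe and -0.04 and -0.18 at the other. For neither gene did the sign hold over arrays and probes. SRSF10, which represses splicing when dephosphorylated, was -0.23 at its brightest probe, and its 4 probes lay between -0.23 and 0.03. SRSF7 was 0.12 and 0.11 at its 2 probes, above 0 on both arrays in each.

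The 20 hnRNP genes were spread on both sides of 0. Of these 7 were above 0 on both arrays, 7 below and 6 mixed. This was close to the split over all genes, with 33.7% above and 36.1% below. The median of the 20 hnRNP genes was -0.04, or 0.17 with median centring. They held the highest gene of the set, HNRNPA1, and several of the lowest.

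HNRNPA1 binds pre-mRNA, opposes SRSF1 at many splice sites and shuttles between nucleus and cytoplasm. At its brighter probe its normalized log2 signal on array 1 was 14.92 in ALDH+ and 14.46 in ALDH- cells, and on array 2 it was 15.00 and 14.40. The ratios were 0.46 and 0.60, with a mean of 0.53 ± 0.10, which is 1.44-fold higher in ALDH+ cells. HNRNPA1 was higher in ALDH+ cells on both arrays at this probe, which lies at chr12:54678778-54678837, position 1672 of its transcript. Its other probe, at position 443, was 0.09 on array 1 and -0.07 on array 2. That probe lists the pseudogene HNRNPA1P10 too and is placed on another HNRNPA1 transcript, whereas the probe at 1672 lists HNRNPA1 alone. The 2 probes thus gave 1.44-fold and no difference under 1 gene name, and their means were 0.52 apart.

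HNRNPA1L2 is an intronless copy of HNRNPA1 on chromosome 13. For 4 of its 5 probes the array files list HNRNPA1 transcripts too, so transcripts of the parent gene and of the copy cannot be told apart there. These 4 probes were at 0.47, 0.28, 0.28 and 0.30, each above 0 on both arrays. The fifth, which lists HNRNPA1L2 and the pseudogene HNRNPA1P10, was 0.10 and -0.22, and like the HNRNPA1 probe at 443 it had opposite signs on the 2 arrays. All other probes of both genes were above 0 on both arrays.

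HNRNPA3, a relative of HNRNPA1, had 5 measured probes that ran from -0.67 to 0.36. At position 240 the pair that differed by 3 bases gave -0.02 and 0.02 on the 2 arrays for probe 1, and 0.08 and -0.12 for probe 2. At position 1562 the brightest probe gave -0.01 and -0.32. Both probes at 240 thus changed sign between the arrays, and that at 1562 was clearly below 0 on array 2 alone. At position 2828 the values were 0.41 and 0.31, and at position 5042 they were -0.65 and -0.69. The last 2 probes, at chr2:178085706-178085765 and chr2:178087920-178087979, were 1.03 apart and on opposite sides of 0 on both arrays. Of the 5 probes 3 list transcripts of the pseudogene HNRNPA3P1 as well, that at 2828 included.

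At the brightest probe, HNRNPU, HNRNPH1, HNRNPH3, HNRNPR, HNRNPUL2, HNRNPA3 and HNRNPD were lower in ALDH+ cells on both arrays. HNRNPD, a regulator of mRNA decay, was -0.21 and -0.06 there but 0.10 and 0.22 at its other probe, and HNRNPA3 also had a probe above 0 on both arrays. HNRNPU, which binds RNA and chromatin in the nuclear matrix, was -0.42 and -0.39 at its printed junction probe and -0.57 and -0.40 at its other probe, at position 5770. All 4 values were below 0, and the mean of the first, -0.40 ± 0.03, is 1.32-fold lower. HNRNPH1, which binds runs of G in RNA, was -0.37 on both arrays. HNRNPH3, its shorter relative, was -0.38 and -0.22 at a probe of 10 spots, with an SD between spots of 0.03 and 0.04, and -0.13 and -0.23 at a junction probe. HNRNPR, which is close to SYNCRIP, was -0.28 and -0.29. HNRNPU and HNRNPH3 kept their sign over both arrays and both of their probes, whereas HNRNPH1 and HNRNPR had 1 probe each.

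HNRNPH2 took opposite signs, 0.31 on array 1 and -0.35 on array 2, and its mean was -0.02. Its probe had 10 spots on each array, with an SD between spots of 0.06 and 0.06. The arrays thus differed by more than the spot error, and with 1 array per dye orientation, dye and array cannot be told apart. The same probe lists a readthrough transcript with RPL36A.

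HNRNPC, which binds U tracts, was 0.17 and -0.24 at its brightest probe, 0.33 and 0.11 at a probe further along the transcript, and 0.15 and 0.34 at one more whose coordinates in the array files are on chromosome 2, not on chromosome 14 as for the others. HNRNPK, which binds C-rich RNA, was 0.07 and -0.22, and at its junction probe 0.01 and -0.13. HNRNPA2B1 was -0.07 and 0.01 at its brighter probe and -0.27 and -0.28 at position 132. The direction of these 3 genes depended on the array or probe. HNRNPM was 0.14 and 0.32. HNRNPCL1 was 0.34 and 0.03, at a probe that lists HNRNPCL2 too.

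Of the 12 genes of the SF3A, SF3B and U2AF proteins 6 were below 0 on both arrays, 2 above and 4 mixed. Over all genes 36.1% were below 0 on both arrays and 33.7% above. The median of the 12 was -0.05, or 0.08 with median centring. U2AF1, which reads the AG at the end of the intron, was -0.31 and -0.35. Its larger partner U2AF2, which binds the polypyrimidine tract, was -0.16 and -0.34. Both subunits were therefore below 0 on both arrays, at means of -0.33 ± 0.03 and -0.25 ± 0.12, although with median centring their means were 0.08 and 0.04. The U2AF1 paralog U2AF1L4 was 0.42 and 0.08.

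SF3B1 holds the branch point helix of U2 and is a recurrent target of mutation in cancer. It was -0.13 and -0.25 at a junction probe near the start of its transcript. SF3B2 was -0.31 and -0.36, also at a junction probe, with a mean of -0.34 ± 0.03. SF3B3 was -0.30 and -0.30 at position 428 and 0.07 and -0.19 at its brighter probe at position 4196. The probe at 428 was dim, with scanned signals in Cy3 of 229.8 and 195.9, beside negative control medians of 135.2 and 127.2. Of the SF3B genes, SF3B1, SF3B2 and SF3B14 (now SF3B6) were below 0 on both arrays and SF3B5, a small subunit, was above at 0.13 and 0.14. The SF3A genes lay between -0.13 and 0.04.

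Of the 13 SNRP genes 6 were above 0 on both arrays (46%, beside 33.7% of all genes), 2 below (15.4%, beside 36.1%) and 5 mixed. The median was 0.04, or 0.30 with median centring, and -0.04 when ratios were centred on probes at a like transcript position, so the direction rested on that choice. SNRPN, an imprinted gene for a tissue-restricted relative of SNRPB that shares its transcript with SNURF, was 0.45 and 0.16. SNRPA, the A protein of the U1 snRNP, was 0.21 and 0.33 at a junction probe. SNRPB2, its counterpart in the U2 snRNP, was 0.16 and 0.17 at one probe and 0.20 and 0.30 at a junction probe. These 3 genes were above 0 at every array and probe.

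Of the Sm ring genes, SNRPE was above 0 on both arrays at each of its 3 measured probes, at 0.18, 0.20 and 0.10. SNRPG was below 0, at -0.19 and -0.27. SNRPD1 was -0.17 and -0.01 at a probe of 10 spots and 0.02 and 0.10 at its other probe. SNRPB was -0.08 and 0.04. SNRPF, at -0.14 and 0.22 with an SD between its 10 spots of 0.02 and 0.04, also had opposite signs on the arrays beyond its spot error. Genes of 1 ring were therefore not on 1 side of 0. The pseudogene SNRPD2P2 was 0.31 and 0.17, and whether transcripts of its parent gene contribute there was not tested. A further probe of SNRPE and a further probe of SNRPC were not well above background.

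Of the 13 PRPF genes 8 were below 0 on both arrays (61.5%, beside 36.1% of all genes), 2 above (15.4%, beside 33.7%) and 3 mixed. The median was -0.17. It was -0.15 on array 1 and -0.14 on array 2, -0.06 with median centring, and -0.08 when ratios were centred on transcript position. The tri-snRNP genes did not share a direction. PRPF3 was -0.24 and -0.41 at a junction probe and PRPF4 was -0.26 and -0.17, whereas PRPF31 was 0.03 and 0.12 at its brighter probe and 0.35 and 0.39 at a junction probe, and PRPF6 was 0.09 and 0.04. PRPF8, the large protein at the heart of the spliceosome, was -0.15 and -0.20 at position 6830. Centred on probes at a like position it was 0.07. PRPF19, the ubiquitin ligase that names the Prp19 complex, was -0.23 and -0.15, with a mean of -0.19, or 0.12 with median centring.

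PRPF4B (now PRP4K), a kinase that acts on tri-snRNP proteins, was the second lowest of the 71 genes at -0.49 ± 0.22. Its brightest probe, at position 7391, was -0.34 and -0.65. The mean of PRPF4B was -0.25 when centred on probes at a like position, and -0.24 over all its measured probes. The printed probe at 2611 was -0.22 and -0.28, and that at 2792 was 0.11 and -0.06. Neighbouring probes of the same transcript thus gave different values, of which the first was below 0 on both arrays and the second was not. Both were dim. Their scanned signals in Cy3 on arrays 1 and 2 were 261.6 and 222.0 at 2611, and 219.1 and 171.9 at 2792. Negative control spots there had medians of 135.2 and 127.2. PRPF40B, a U1-associated protein, was 0.19 and -0.38.

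**Figure D3:**
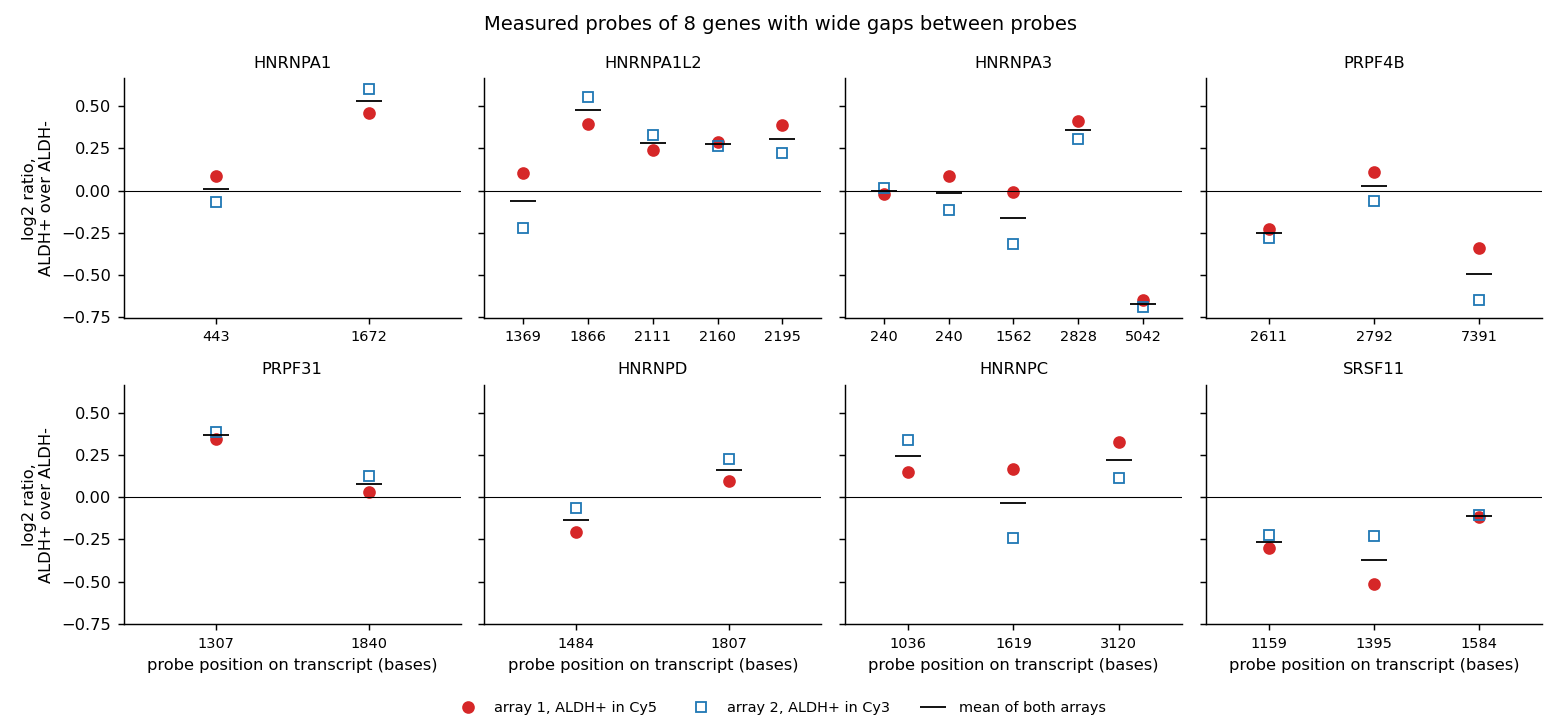
Log2 ratio of ALDH+ over ALDH- cells (y axis) at each measured probe of 8 splicing genes with wide gaps between probes, ordered by position of the probe in bases from the transcript start (x axis labels, not to scale). Filled circles are array 1, open squares array 2, and bars their mean. Both values of HNRNPA3 are near -0.67 at position 5042 and above 0.3 at position 2828.

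Of the 71 genes 25 had several measured probes, and in 4 of them (HNRNPA3, HNRNPA1L2, HNRNPA1 and PRPF4B) probes differed by more than 0.5. On array 1 alone 1 gene did, and on array 2 alone 6 did. Probes farther along the transcript were lower in some of these genes, such as HNRNPA3, and higher in others, such as HNRNPA1L2. The HNRNPA1 probes lie on different transcripts, and that at the higher position had the higher ratio. Of the 7 splicing probes that lay more than 5000 bases from the transcript start all were below 0, as were 80.3% of all 1451 measured probes there. They included probes of SRSF1, HNRNPA3, HNRNPU, PRPF4B, PRPF8 and SF3A1 and ran from -0.77 to -0.13 with a median of -0.49. The 3 splicing probes that were more than 1.5-fold lower, those of SRSF1 and HNRNPA3 included, were all among them.

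This was also a property of the arrays as a whole. The median ratio of all measured probes was 0.08 up to position 1000, 0.03 up to 2000, -0.03 up to 3000, -0.09 up to 5000 and -0.23 beyond. In the last range it was -0.22 on array 1 and -0.27 on array 2. The share of probes more than 1.5-fold lower went from 2.30% in the first range to 12.2% in the last, in which 4.55% of the probes were below the SRSF1 value. Spearman's rho of ratio with position was -0.33 over 16053 probes and also -0.33 over the 108 measured splicing probes. These are descriptions, since probes of 1 array share RNA, labelling and hybridization. Among 18 splicing genes with several measured probes on 1 transcript, the farthest probe was lower than the nearest in 13 (72.2%), beside 59.9% of 1766 genes in all. The part of position in the ratios of single genes was not tested.

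**Figure D4:**
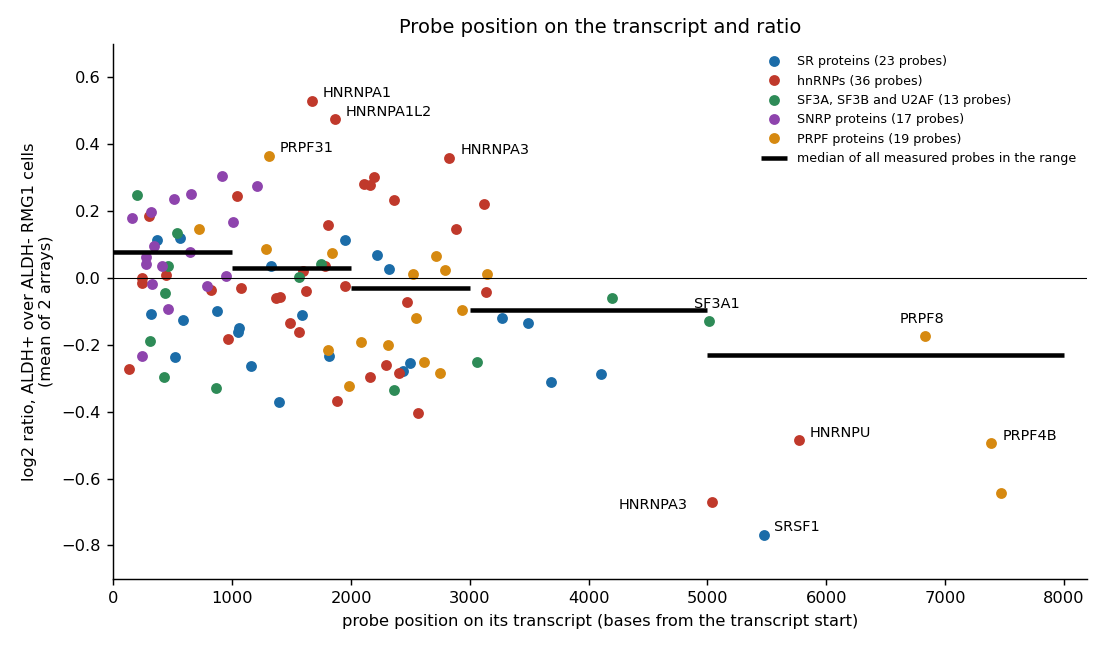
Position of each measured splicing probe in bases from its transcript start (x axis) and its log2 ratio of ALDH+ over ALDH- cells, mean of 2 arrays (y axis), coloured by role. Black lines are medians of all measured probes in 5 ranges of position, from 0.08 to -0.23. All 7 splicing probes beyond 5000 bases are below 0, as are 80.3% of all measured probes there.

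The role groups differed in where their probes lie. The median position of the representing probe was 509 for SNRP genes, which have short transcripts, 1917 for hnRNPs, 2221 for SR proteins and 2545 for PRPF genes, beside 1768 over all genes. After centring on position, medians were -0.04 for SNRP genes, -0.05 for hnRNPs, -0.03 for SF3A, SF3B and U2AF, -0.19 for SR proteins and -0.08 for PRPF genes. U2AF1, whose probe is at position 863, was -0.41 after centring on position and HNRNPH1 was -0.40, both at least as far below 0 as without it, whereas with median centring they were 0.08 and -0.11. HNRNPA1 was 0.50 after centring on position and 0.93 with median centring.

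Other genes that work with the splicing machinery were looked at in 5 lists. None of 50 other spliceosome components was past 1.5-fold, and their median was -0.01. The lowest were THRAP3, an RS-rich protein, at -0.47 and -0.51, and DDX42, an SF3B-associated helicase, at -0.39 and -0.43. The mean of THRAP3 was -0.23 over all its measured probes and 0.02 at the probe nearest the transcript start. The highest were PPIE at 0.23 and 0.36 and BUD31 at 0.25 and 0.20. All 9 genes of the minor spliceosome were inside 1.5-fold, with a median of 0.10 for the means of both arrays but 0.00 on array 1 and -0.03 on array 2. They ran from PDCD7 at -0.50 and -0.16 and RNPC3 at -0.38 and -0.26 to SNRNP48 at 0.21 and 0.27 and SNRNP25 at 0.55 and 0.19, all proteins of the U11/U12 snRNP. RNPC3 had a mean of -0.32, which was -0.19 over all its measured probes.

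The 12 kinases and phosphatases of SR proteins were inside 1.5-fold, with a median of -0.03. Past 1.5-fold, 1.51% of all genes were higher and 4.59% lower. SRPK3 was -0.62 and 0.24, of opposite sign on the arrays, and DYRK1B was -0.27 and -0.07. PPP1CA, a catalytic subunit of protein phosphatase 1, was 0.41 and 0.15, and the kinase CLK4 was 0.09 and 0.07. Of the 12 genes 3 were above 0 on both arrays (25.0%, beside 33.7% of all genes), 5 were below (41.7%, beside 36.1%) and 4 were mixed.

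Of 48 other splicing regulators 45 were measured, with a median of -0.12, or 0.02 with median centring. One was more than 2-fold lower, LUC7L3, a U1-associated protein with an RS domain, at -1.20 and -1.11, which is 2.23-fold. MBNL1, which switches exons during differentiation, was the only other gene of this list past 1.5-fold, at -1.04 and -0.56. Both were lower in ALDH+ cells on each array, at positions 3359 and 5672 of their transcripts, and centred on position they were -1.05 and -0.56, the latter inside 1.5-fold. With median centring LUC7L3 was -0.89, inside 2-fold. No gene of the list was more than 1.5-fold higher with normexp and an offset of 50. The highest was KHDRBS3, a STAR family RNA-binding protein, at 0.19 and 0.79, and its mean of 0.49 became 0.71 with an offset of 10 and 1.10 by the software's ratio, past 1.5-fold and 2-fold. On both arrays 22 of the 45 were below 0 (48.9%, beside 36.1% of all genes) and 12 above (26.7%, beside 33.7%). Of all genes 4.59% were more than 1.5-fold lower and 0.707% more than 2-fold lower.

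Of 20 genes for nuclear import and snRNP assembly 18 were measured, with a median of 0.02. Past 1.5-fold, 1.51% of all genes were higher and 4.59% lower. KPNB1, which encodes importin beta, was lower at -0.65 and -0.69, 1.59-fold and the only gene of the list past 1.5-fold. With median centring it was -0.30, inside 1.5-fold. GEMIN5, which delivers small nuclear RNAs to the SMN complex, was -0.63 and -0.44, and its mean of -0.54 became -0.60 with an offset of 10 and -0.68 by the software's ratio, both past 1.5-fold. PRMT5, which methylates Sm proteins, was 0.60 and 0.04, and SNUPN, the import adaptor of snRNPs, was 0.38 and 0.01. The KPNB1 probe lies at position 4095 of its transcript, and centred on position it was -0.57, inside 1.5-fold.

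**Figure D5:**
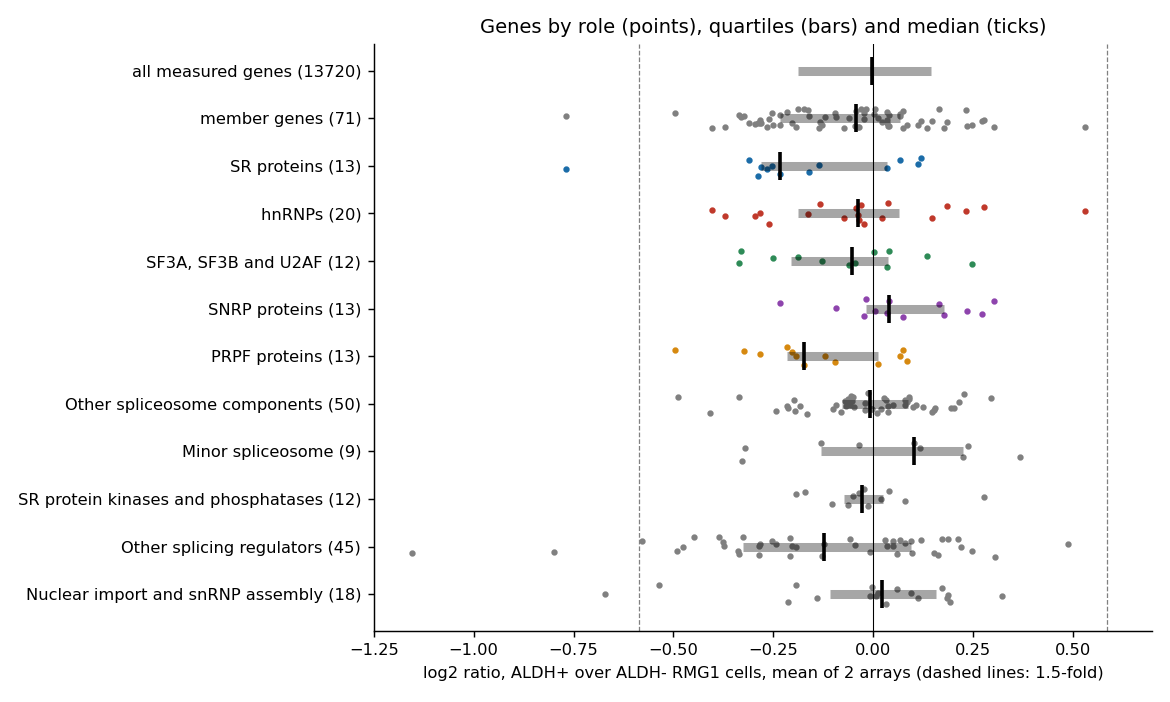
Log2 ratio of ALDH+ over ALDH- cells (x axis, mean of 2 arrays) for genes of each role group and of 5 further lists, with the number of genes in brackets. Points are genes, grey bars the middle quartiles, ticks the medians and dashed lines 1.5-fold, and points of all measured genes are not drawn. SR proteins have a median of -0.23 and SNRP proteins of 0.04, beside 0.00 over all genes.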

How the data were processed

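The authors deposited, per array and unnormalized, the intensity of each spot and its local background, read by Feature Extraction (10.7.3.1 per the file headers, 8.5.1.1 per the submitters' processing notes). They also deposited this software's log10 ratio and a table that joins both arrays' log10 ratios, of which 4 columns of signals were not used. Labeling was primed with a T7 promoter primer per the labels, which the methods describe as oligo dT. In R 4.3.3 with limma 3.58.1, mean spot signals and median local backgrounds entered normexp correction (offset 50), followed by loess within each array, control and outlier spots having weight 0. No splicing spot was an outlier or saturated. Ratios were turned to ALDH+ over ALDH- on the log2 scale, and spots of a probe were averaged (Python 3.11.15, pandas 2.3.3, numpy 2.4.6, scipy 1.17.1, matplotlib 3.10.9). A probe counted as measured where, for ALDH+ or for ALDH- RNA, over 50% of its spots on each array were well above background, as 108 of 110 splicing probes were. A gene took its brightest measured probe. The offset compresses ratios of dim probes, and the number of arrays limits the precision. Symbols came from RefSeq (GRCh38.p14) for 25422 probes, 109 splicing probes among them, and splicing genes keep the array's name. Transcript positions are those of the array files.

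The members and lists were chosen with earlier results of these data known. Genes were named by rule: the 8 highest and 8 lowest with the same sign on both arrays, those past 1.5-fold, those whose probes differ by over 0.5, 15 well-known members, and the 2 highest and 2 lowest of each further list. Others are named as members of their group, chosen after their values were seen. Alternatives changed the background correction (none, plain subtraction, offset 10), took median centring, the software's ratio or the joined table, changed the filter, averaged all probes, kept outlier spots or left out an array. Centring on position and the probe nearest the transcript start were chosen after seeing the data. Some members, markers and sequences are not reported here, though counts and medians include them. The normalization was also tested on simulated arrays.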

Additional observations from a re-analysis of the deposited data

How the results depend on the processing

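No paired analysis was made because each group was taken as 1 sample, and no test compared the groups. Median centring in place of loess moved all 11 medians: 0.12 for all 71 genes, -0.0062 for SR proteins, 0.17 for hnRNPs, 0.0772 for SF3A, SF3B and U2AF, 0.30 for SNRP, -0.0639 for PRPF, 0.11 for other spliceosome components, 0.17 for the minor spliceosome, 0.0521 for SR protein kinases and phosphatases, 0.0163 for other regulators and 0.16 for import and assembly. It also gave 2 splicing genes more than 1.5-fold higher, HNRNPA1 and HNRNPA1L2, and over all genes 511 higher and 404 lower in place of 207 and 630. The array software's ratio and the joined table, whose values were equal, gave 2 genes more than 1.5-fold lower, SRSF1 and PRPF4B, of which 1 (SRSF1) past 2-fold, and medians of -0.0202 for all 71 genes, -0.0107 for hnRNPs, -0.15 for PRPF, 0.13 for the minor spliceosome and 0.0486 for import and assembly. Without background correction the PRPF median was -0.17, as with an offset of 10 (-0.17). The mean of all probes gave -0.16 for SR proteins and -0.0865 for SF3A, SF3B and U2AF, and the probe nearest the start -0.14 and -0.0865. Centring on position left 0 genes more than 1.5-fold lower and gave medians of -0.0369 for SNRP, -0.0781 for PRPF, 0.0241 for the minor spliceosome, 0.0599 for import and assembly and 0.0368 for kinases and phosphatases. The cause was not tested.

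With 1 array left out, medians ranged from -0.0775 to -0.0454 for all 71 genes, -0.23 to -0.12 for SR proteins, -0.0244 to 0.0082 for hnRNPs, -0.12 to -0.0687 for SF3A, SF3B and U2AF, 0.0481 to 0.10 for SNRP, -0.15 to -0.14 for PRPF, -0.0263 to 0.0048 for the minor spliceosome, 0.0267 to 0.0496 for import and assembly and -0.0293 to 0.0418 for kinases and phosphatases. Genes more than 1.5-fold higher ranged from 0 to 1 (HNRNPA1 on array 2) and lower from 1 (SRSF1) to 2 (with PRPF4B on array 2), and genes with probes over 0.5 apart from 1 to 6. Array 1 alone gave the 1, and array 2 alone the 6. Over 48 genes taken by the naming rule, 25 of 671 values under alternatives had the other sign. Dim probes such as those of SRSF1, PRPF40B and U2AF1L4 have signals near those of negative controls in Cy3, which limits the size of their ratios.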
